A study of Mus musculus with 10 samples.

Results

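The RasGRP proteins and the Rap1 pathway were followed through 8 genes in mouse T cell leukemia with and without the calcineurin subunit CnB1. The genes were the exchange factors Rasgrp1, Rasgrp2, Rasgrp3 and Rasgrp4, the GTPases Rap1a and Rap1b, the Rap1 effector Rassf5 and the Rap1 inactivator Sipa1. Every probe set that the platform annotation gave to exactly 1 of these symbols was taken, which gave 19 probe sets of the 45037 that were tested. The set was chosen by measured values, because it was proposed with the TAM minus OIL difference of Rasgrp2 in these same arrays already known. TAM minus OIL differences of the 8 genes are therefore a description and support nothing, and the comparison of levels between leukemia labels does not use that difference.

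The arrays held RNA from sorted leukemic marrow cells of mice, 5 arrays in each of 2 groups. The TAM leukemias had been exposed to tamoxifen in the animal, which activates the Cre-ERT2 recombinase, deletes CnB1 (current symbol Ppp3r1, the regulatory subunit B of calcineurin) and so inactivates calcineurin. The OIL leukemias had received the corn oil carrier alone and kept CnB1. Both groups were T cell acute lymphoblastic leukemia driven by ICN1, the activated form of NOTCH1, and both carried the ROSCreERT2 transgene and 2 floxed CnB1 alleles, so no array came from cells without the transgene. The cells had been passed into secondary recipient mice, made up over 50% of the marrow and were sorted by GFP or a similar marker, and 200 ng of total RNA was labelled. The OIL mice had received no tamoxifen, so tamoxifen itself and loss of CnB1 cannot be told apart in these groups. Each group held the labels 204, 206, F3, F3.1 and F3.2, where F3.1 and F3.2 drop a trailing number of the sample names that is not the same in TAM and OIL. The labels do not say that arrays came from separate mice, so p-values cover the variation among these arrays and no more.

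RasGRP proteins are guanine nucleotide exchange factors that load Ras or Rap GTPases with GTP after antigen receptor or cytokine signals, and some of them bind diacylglycerol. Rasgrp1 is the main Ras activator below the T cell receptor, while Rasgrp2, also called CalDAG-GEFI, acts mainly on Rap1 and is best known from platelets. Active Rap1 binds Rassf5, also called RAPL, and raises integrin adhesion of lymphocytes, and Sipa1, also called SPA-1, returns Rap1 to its GDP-bound form.

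Calcineurin dephosphorylates NFAT factors, whose binding sites contain the core GGAAA, so the promoter windows of the 8 genes were read for that core on both strands (GGAAA or TTTCC). Windows ran from 250 bases before to 50 bases after a transcription start in RefSeq on GRCm38.p6. Entries were found for 6 of the 8 genes, with 8 windows in all, and not for Rap1a and Rasgrp4. The Rasgrp2 and Rassf5 windows are shown because their probe sets differed in opposite directions between the groups. The Rasgrp2 windows lie at chr19:6399625-6399924 and chr19:6401455-6401754 on the plus strand, and the Rassf5 window lies at chr1:131200136-131200435 on the minus strand. All are printed 5′ to 3′ on the gene's strand, with the core in capitals.
Rasgrp2 upstream start: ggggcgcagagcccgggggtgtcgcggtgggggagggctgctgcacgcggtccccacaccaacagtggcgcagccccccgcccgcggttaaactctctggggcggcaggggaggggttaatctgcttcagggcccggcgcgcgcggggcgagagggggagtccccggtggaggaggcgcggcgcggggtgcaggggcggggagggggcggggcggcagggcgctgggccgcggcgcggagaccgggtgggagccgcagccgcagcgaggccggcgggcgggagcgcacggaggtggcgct
Rasgrp2 downstream start: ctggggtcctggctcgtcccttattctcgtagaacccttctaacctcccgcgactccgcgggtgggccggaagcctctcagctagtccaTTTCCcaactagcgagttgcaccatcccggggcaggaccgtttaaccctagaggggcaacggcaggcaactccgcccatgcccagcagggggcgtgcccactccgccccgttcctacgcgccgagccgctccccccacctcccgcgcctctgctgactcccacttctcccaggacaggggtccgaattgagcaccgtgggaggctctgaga
Rassf5: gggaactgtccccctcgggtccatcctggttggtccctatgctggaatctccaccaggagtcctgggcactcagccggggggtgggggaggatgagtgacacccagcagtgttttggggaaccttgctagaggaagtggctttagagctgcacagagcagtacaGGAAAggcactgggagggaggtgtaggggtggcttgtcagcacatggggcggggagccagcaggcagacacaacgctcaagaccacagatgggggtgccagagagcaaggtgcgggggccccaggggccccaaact

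The window at the upstream Rasgrp2 start held 0 cores and 40 CG dinucleotides, against a median of 7 CG dinucleotides over all 32851 windows of 27025 genes. The window at the downstream Rasgrp2 start held 1 core, on the opposite strand 161 bases before the start, and 23 CG dinucleotides. The Rassf5 window held 1 core, on the gene's own strand 86 bases before the start, and 5 CG dinucleotides. Of the 8 windows, 6 held at least 1 core, as did 61.3% of all windows. The most were the 6 cores in 1 of the 2 Rasgrp3 windows, while the Sipa1 window held 0. These matches are letters in a fixed window and not measured binding.

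The values were log2 expression values made by RMA, and the array medians lay between 5.08 and 5.13. Of the 2 probe sets of Ppp3r1, the targeted gene, 1421786_at was at 3.18, 3.30, 3.21, 3.02 and 3.59 in TAM (labels in the order 204, 206, F3, F3.1, F3.2, used throughout) and at 5.04, 4.49, 6.04, 5.54 and 5.51 in OIL. It fell by 2.06 in TAM with no overlap between the groups (limma adjusted p = 0.0161). The other, 1433591_at, was much brighter, at 9.63 to 9.72 in TAM and 9.71 to 9.91 in OIL. It differed by -0.12 (limma adjusted p = 0.553), and whether either probe set lies in the deleted exons was not determined. Of the T cell markers, 5 of 6 had a probe set of their own. Their summed level was 14.19 to 14.54 in TAM and 14.26 to 14.49 in OIL. Marker sums, here and below, are the log2 of the sum of the unlogged values, so the brightest markers weigh most. The genes of the T cell receptor complex Cd3d, Cd3e and Cd3g averaged above 11 in both groups. In bulk samples fewer cells of a type and less RNA per cell cannot be told apart.

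In the RasGRP and Rap1 set, Rasgrp2 and Rasgrp4 were higher in TAM in all 5 labels, and Rap1a and Rassf5 were lower in all 5. The log2 differences were 0.46 to 1.02 in the 4 probe sets of Rasgrp2 and 0.88 in Rasgrp4, against -0.37 to -0.26 in the 4 probe sets of Rap1a and Rassf5. Rasgrp1, Rasgrp3, Rap1b and Sipa1 overlapped between the groups in every probe set. No probe set of the 19 passed an adjusted p of 0.05 in the limma fit without a block, where 33 of all 45037, or 0.0733%, did. At an unadjusted p under 0.05 the counts were 9 of 19 and 4347 of 45037 (9.65%). With the replicate label as a block, 6 of 19 passed, beside 584 of all probe sets (1.3%). Of those 6, 5 were higher in TAM (0.706% of all probe sets were) and 1 was lower (0.591% of all were). Nothing is read from these shares, since the set was chosen with this contrast known.

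**Figure D1:**
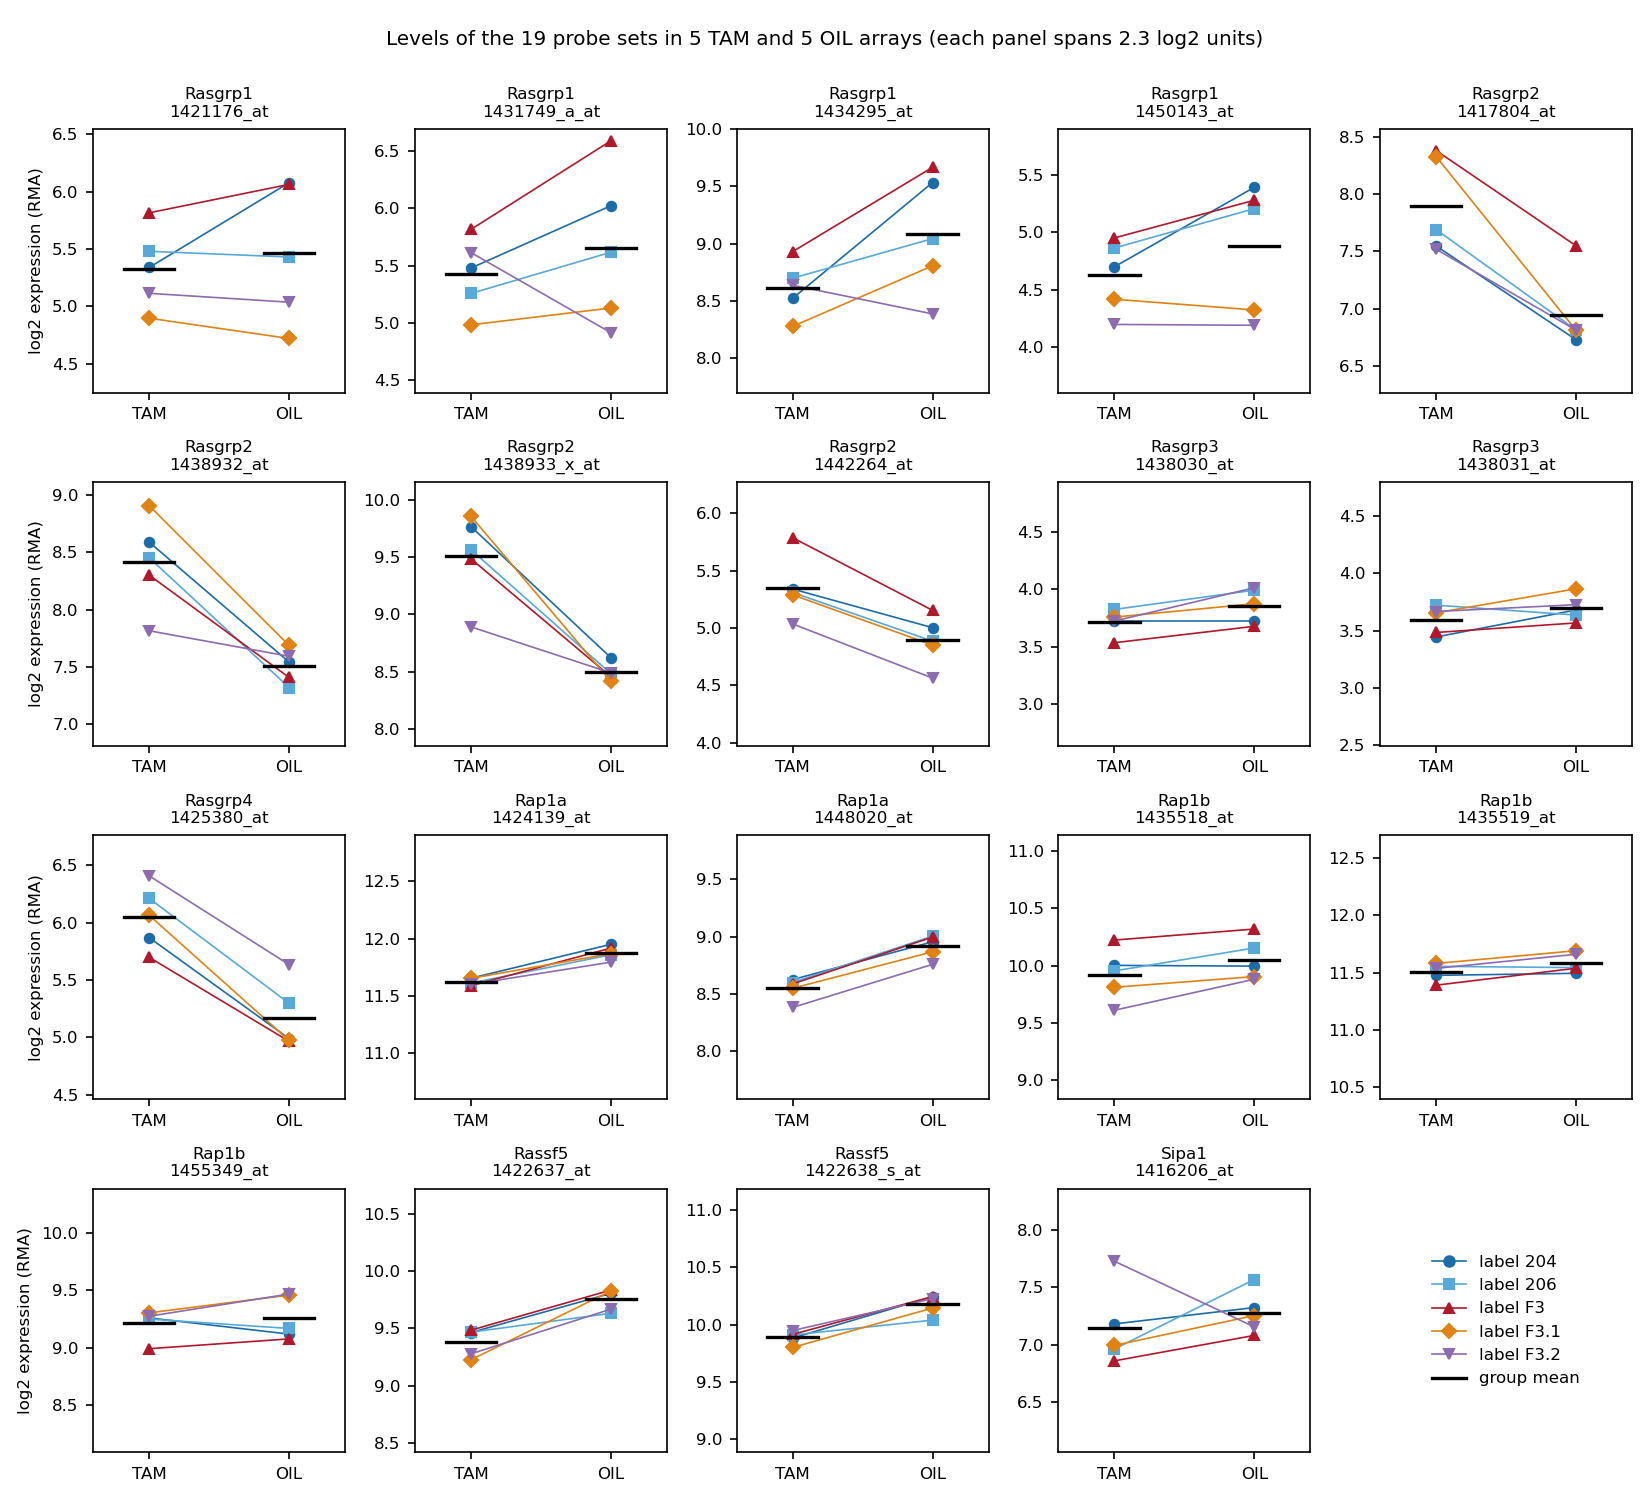
Level of each of the 19 probe sets in 5 TAM and 5 OIL arrays (vertical axis, log2 expression made by RMA; every panel spans the same number of log2 units). Points joined by a line carry the same label, and black bars are group means; TAM lies above OIL for Rasgrp2 and Rasgrp4 and below it for Rap1a and Rassf5 in every label.

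Rasgrp2, the Rap1 exchange factor, had 4 probe sets. The brightest, 1438933_x_at, was at 9.76, 9.56, 9.48, 9.85 and 8.89 in TAM and at 8.62, 8.48, 8.46, 8.41 and 8.49 in OIL. All TAM arrays lay above all OIL arrays, the lowest TAM value was that of label F3.2, and the OIL arrays lay within a narrow range. The means were 9.51 ± 0.38 in TAM and 8.49 ± 0.08 in OIL (SD, n = 5 each), a difference of 1.02 or 2.03-fold (SE 0.16, limma adjusted p = 0.0560 without a block and 0.0176 with it). The ending _x_at marks a probe set whose probes may also match other transcripts.

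Probe set 1438932_at of Rasgrp2 was at 8.59, 8.45, 8.30, 8.91 and 7.81 in TAM and at 7.54, 7.32, 7.41, 7.69 and 7.59 in OIL. These groups did not overlap either, and F3.2 was again the lowest TAM array, close to the highest OIL arrays. The difference was 0.90 (limma adjusted p = 0.112 without a block and 0.0282 with it). Probe set 1417804_at was at 7.55, 7.69, 8.38, 8.33 and 7.52 in TAM and at 6.73, 6.81, 7.55, 6.81 and 6.81 in OIL. The groups overlapped through a single array, because OIL F3 reached the lower TAM values while the other 4 OIL arrays lay close together. The difference was 0.95 (limma adjusted p = 0.170 without a block and 0.0151 with it). The dimmest, 1442264_at, was at 5.34, 5.31, 5.79, 5.29 and 5.04 in TAM and at 5.0, 4.89, 5.15, 4.85 and 4.56 in OIL. Its groups overlapped, with F3 the highest and F3.2 the lowest array in each group, and the difference was 0.46 (limma adjusted p = 0.330 without a block and 0.0233 with it).

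Within labels, the TAM minus OIL difference of 1438933_x_at was smallest in F3.2 (0.40) and largest in F3.1 (1.44). For 1438932_at the same 2 labels were the extremes, at 0.22 and 1.22. The pairing of F3.2 is the least certain, because its TAM and OIL arrays deviated together least (Pearson r = 0.18 over the genes tested). The 4 probe sets did not rank the arrays alike within the groups. Over deviations from the group means of the 10 arrays, 1438932_at and 1438933_x_at correlated at 0.89, but either correlated with 1417804_at at 0.25 to 0.28 only. These points share arrays and treatment and are a description. Without the TAM F3.2 array, in the fit without a block, 1438933_x_at differed by 1.17 and 1438932_at by 1.05, and both were then past the threshold (limma adjusted p = 0.0036 and 0.0269). With the block, 1417804_at kept its call unless label 204 or F3 was left out. The other 3 kept theirs only when label F3.2 was the one left out.

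When each gene was represented by its brightest probe set and the lowest 30% of genes were left out, 7 of the 8 genes were tested among 12735 genes. In that fit Rasgrp2 alone of the 7 was past the threshold without a block (limma adjusted p = 0.0282), beside 60 or 0.471% of all genes. With the block, Rasgrp2 (limma adjusted p = 0.0139) and Rasgrp4 (0.00449) were past it, beside 431 or 3.38% of all genes. The call of Rasgrp2 without a block did not hold when TAM 204, TAM 206, TAM F3.1 or any 1 of the 5 OIL arrays was left out (limma adjusted p = 0.0506 to 0.0964). With the block it did not hold without label 204, F3 or F3.1 (limma adjusted p = 0.0512 to 0.0581). The difference itself stayed between 0.93 and 1.17 over the 10 fits that left out 1 array.

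Rasgrp4, an exchange factor for Ras that is known mainly from mast cells and myeloid cells, had 1 probe set, 1425380_at. It was at 5.87, 6.21, 5.70, 6.06 and 6.41 in TAM and at 4.99, 5.30, 4.97, 4.97 and 5.63 in OIL. All TAM arrays lay above all OIL arrays, and F3.2 was the highest array in both groups. The means were 6.05 ± 0.28 in TAM and 5.17 ± 0.29 in OIL (SD, n = 5 each), a difference of 0.88 or 1.84-fold (limma adjusted p = 0.106 without a block and 0.00608 with it). Within labels the difference lay between 0.73 and 1.09, a narrower range than that of any of the 3 brighter Rasgrp2 probe sets. The call with the block held when any 1 label was left out.

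Because Rasgrp2 and Rasgrp4 are also known from platelets, mast cells and myeloid cells, the markers of those cells were set beside them. Of the megakaryocyte and platelet markers, 5 of 6 had a probe set of their own, with a summed level of 7.62 to 7.74 in TAM and 7.66 to 7.83 in OIL. The platelet factor Pf4 averaged 4.79 ± 0.07 in TAM and 4.76 ± 0.16 in OIL, and Ppbp averaged 2.84 ± 0.12 in TAM and 2.92 ± 0.16 in OIL (SD, n = 5 each). On average 2 of the 5 were higher in TAM and 3 lower. The 5 mast cell and basophil markers summed to 7.03 to 7.47 in TAM and 7.02 to 8.26 in OIL, with 3 of the 5 lower in TAM on average. The highest of these sums was that of OIL 204, where Cpa3 alone was at 7.77. Fcer1a and Kit were among the dimmest 30% of probe sets, and such dim markers hardly move a sum.

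The 6 myeloid markers varied most, with sums of 8.25 to 11.01 in TAM and 7.74 to 10.13 in OIL, and F3 was the highest array in each group. The neutrophil protein S100a8 was at 7.39, 6.55, 10.07, 7.63 and 9.11 in TAM and at 5.06, 6.94, 9.11, 8.27 and 6.69 in OIL. Those groups overlapped, and S100a8 was higher in TAM in 3 of the 5 labels, with a difference of 0.94 between the group means. The neutrophil protein S100a9 and the lysozyme Lyz2 differed by 0.87 and 0.40, and Csf1r by -0.10. Elane and Mpo, which define early myeloid cells, averaged 4.70 and 4.46 in TAM and 4.78 and 4.51 in OIL. The B cell markers summed to 6.37 to 6.57 in TAM and 6.49 to 6.81 in OIL. Erythroid markers summed to 6.51 to 6.69 in TAM and 6.48 to 6.85 in OIL, and the NK cell marker Ncr1 lay at 4.11 to 4.79 in TAM and 4.58 to 4.66 in OIL. None of the markers passed an adjusted p of 0.05 in the probe set fit without or with the block. RMA values have no zero, so no marker can be said to be at 0. The part of other marrow cells in the Rasgrp2 and Rasgrp4 differences was not tested.

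Rasgrp1, the Ras activator of T cells, had 4 probe sets, and none passed the threshold in the fit without or with a block. The brightest, 1434295_at, was at 8.53, 8.70, 8.93, 8.28 and 8.64 in TAM and at 9.53, 9.05, 9.67, 8.81 and 8.39 in OIL. The groups overlapped, with TAM lower in 4 labels and higher in F3.2. The difference was -0.47 (SE 0.23, limma adjusted p = 0.547 without a block and 0.198 with it). With a block and without label F3.2 it was -0.65 and past the threshold (limma adjusted p = 0.0337), and with any other label left out it was not. The other Rasgrp1 probe sets differed by -0.14 for 1421176_at, -0.22 for 1431749_a_at and -0.25 for 1450143_at.

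Rasgrp1 varied with the label. In each of the 4 probe sets the mean over the TAM and OIL arrays of a label was highest in F3 and lowest in F3.1 or F3.2. For 1434295_at these label means were 9.30 in F3, 9.03 in 204, 8.87 in 206, 8.54 in F3.1 and 8.51 in F3.2. The 4 probe sets moved together over the 10 arrays, with correlations of 0.76 to 0.89, and of 0.74 to 0.94 over deviations from the group means.

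Rasgrp3, the family member best known from B cells, was dim. Its 2 probe sets, 1438030_at and 1438031_at, averaged 3.71 and 3.60 in TAM and 3.86 and 3.70 in OIL, which places both among the lowest 30% of all probe sets (below 4.04). Both overlapped between the groups, and neither difference (-0.14 and -0.10) passed the threshold.

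Rap1a, a GTPase that switches integrin adhesion on when it binds GTP, had 2 probe sets. The brighter, 1424139_at, was at 11.65, 11.61, 11.59, 11.65 and 11.60 in TAM and at 11.95, 11.86, 11.92, 11.87 and 11.79 in OIL. All TAM arrays lay below all OIL arrays, and the TAM arrays lay close together. The difference was -0.26 (SE 0.05, limma adjusted p = 0.15 without a block and 0.0877 with it). Probe set 1448020_at was at 8.63, 8.60, 8.59, 8.55 and 8.38 in TAM and at 8.95, 9.0, 9.0, 8.87 and 8.76 in OIL. Again no array overlapped, and label F3.2 was the lowest in both groups. The difference was -0.37 (limma adjusted p = 0.125 without a block and 0.0301 with it), and within labels it lay between -0.41 and -0.32. That call with the block was kept when label F3.2 was left out and not when any 1 of the other 4 labels was.

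Rap1b, a close relative of Rap1a, had 3 probe sets, and all overlapped between the groups. They averaged 9.92 in TAM and 10.05 in OIL for 1435518_at, 11.51 in TAM and 11.58 in OIL for 1435519_at, and 9.22 in TAM and 9.26 in OIL for 1455349_at. The differences were -0.13, -0.08 and -0.04, and none passed the threshold in either fit. The probe sets disagreed on the labels. Label F3 was the highest in 1435518_at and the lowest in the other probe sets. Over the 10 arrays 1435519_at and 1455349_at correlated at 0.87, while 1435518_at correlated with them at -0.42 and -0.67. Over deviations from the group means those 2 values were -0.70 and -0.77.

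Rassf5, the Rap1 effector RAPL, had 2 probe sets and was lower in TAM in both. Probe set 1422637_at was at 9.46, 9.47, 9.48, 9.22 and 9.28 in TAM and at 9.80, 9.63, 9.83, 9.82 and 9.67 in OIL. Probe set 1422638_s_at was at 9.88, 9.91, 9.91, 9.80 and 9.95 in TAM and at 10.24, 10.04, 10.24, 10.14 and 10.23 in OIL. In both, all TAM arrays lay below all OIL arrays, and label 206 had the smallest difference. The differences were -0.37 (limma adjusted p = 0.138 without a block and 0.0633 with it) and -0.29 (0.155 and 0.0791). Neither passed the threshold in either fit.

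Sipa1, which inactivates Rap1, had 1 probe set, 1416206_at. It was at 7.18, 6.96, 6.86, 6.99 and 7.73 in TAM and at 7.32, 7.57, 7.08, 7.25 and 7.16 in OIL. TAM was lower in 4 labels, but the F3.2 array was the highest of all 10. The difference was -0.13 (limma adjusted p = 0.838 without a block and 0.690 with it).

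**Figure D2:**
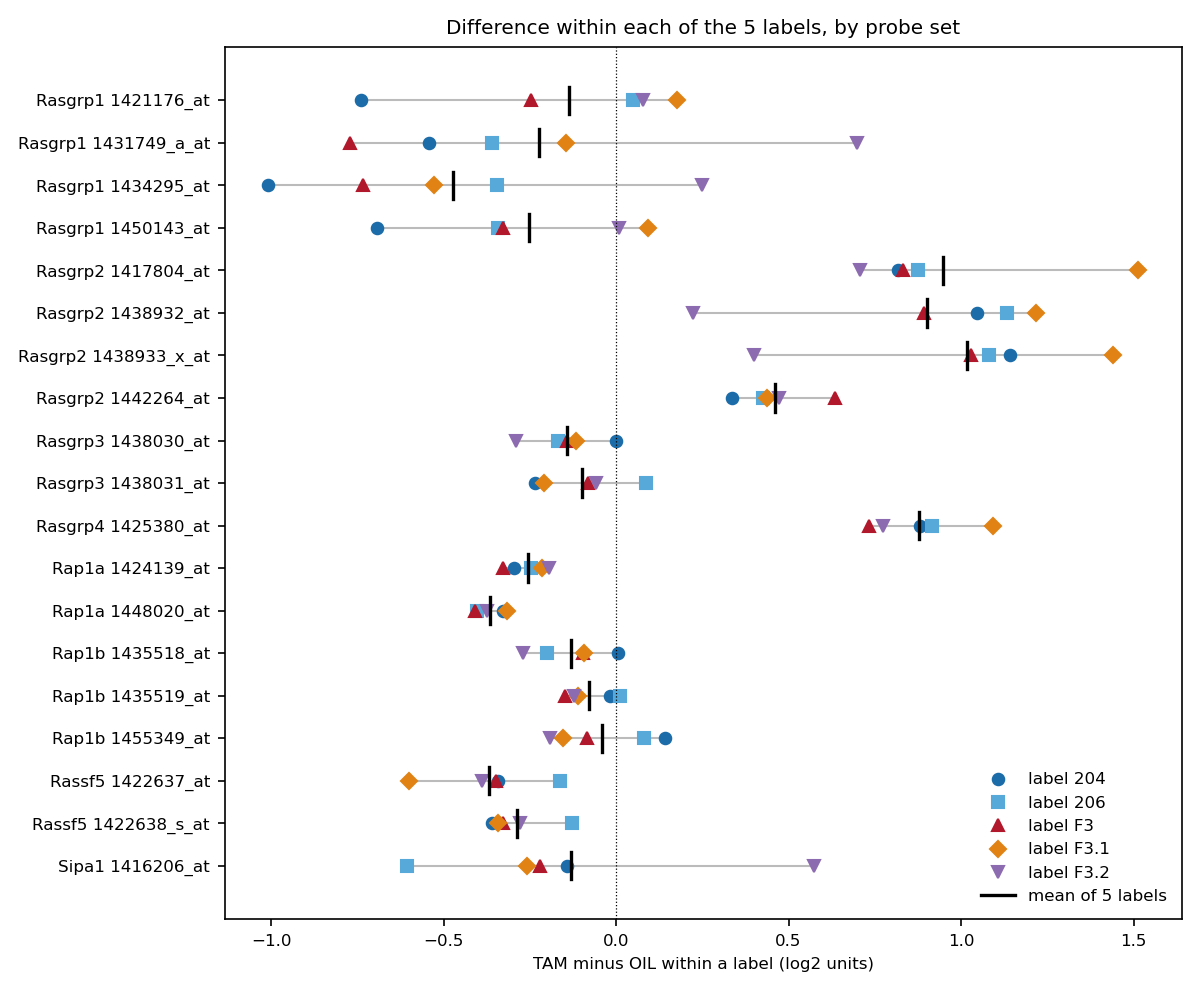
TAM minus OIL within each of the 5 labels (horizontal axis, log2 units) for the 19 probe sets, with a bar at the mean of the 5 labels. Label F3.2 lies apart from the other 4 in Rasgrp2 1438932_at and 1438933_x_at, in Rasgrp1 1431749_a_at and 1434295_at and in Sipa1, while the 5 labels lie close together for Rap1a.

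Over the set, 3 of 19 probe sets had all TAM arrays above all OIL arrays, where 0.83% of all probe sets did. Another 4 had all TAM arrays below all OIL arrays, where 1.23% of all did. The median difference was -0.13 over the 19 and -0.02 over all 45037 probe sets, and the median absolute difference was 0.26 over the 19 and 0.09 over all. Set against probe sets of like mean level (all probe sets divided into 10 equal bins), 10 of the 19 differences lay outside the central 90% and 4 outside the central 98%. Those 4 were Rasgrp4 and the Rasgrp2 probe sets 1417804_at, 1438932_at and 1438933_x_at. The choice of the set fixes part of this.

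**Figure D3:**
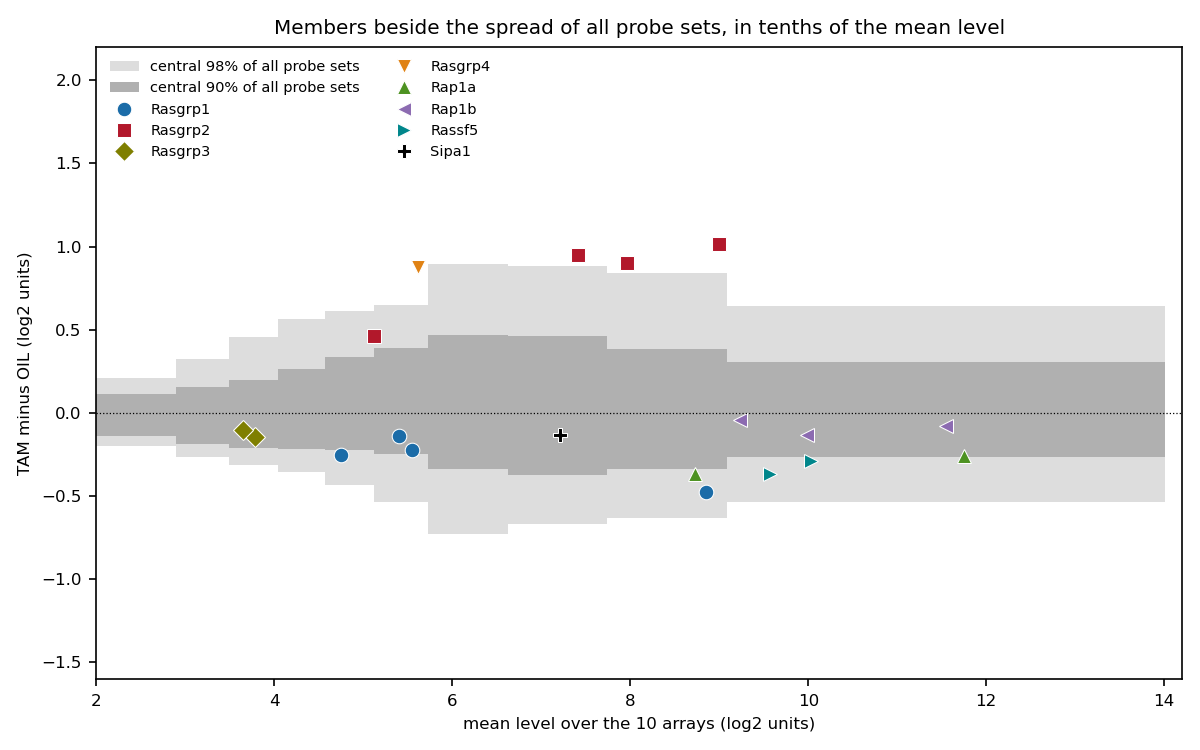
TAM minus OIL (vertical axis, log2 units) of the 19 probe sets against their mean level over the 10 arrays (horizontal axis, log2 units), over bands that hold the central 90% and 98% of all 45037 probe sets in each of 10 bins of mean level. The 4 points above the bands belong to Rasgrp2 and Rasgrp4. Rap1a 1448020_at, both Rassf5 probe sets and Rasgrp1 1434295_at and 1450143_at lie below the inner band but within the outer band. Rap1a 1424139_at lies within the inner band.

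Whether the leukemias labelled F3 differed in these genes from those labelled 204 and 206 was asked with the mean of the TAM and OIL arrays of each label, 3 labels against 2, a contrast that the TAM minus OIL difference does not enter. None of the 19 probe sets passed an adjusted p of 0.05 in limma, where 296 or 0.657% of all did. At an unadjusted p under 0.05 the counts were 0 of 19 and 5310 of 45037 (11.8%). The median absolute difference was 0.06 over the 19 and 0.10 over all. The lowest difference was that of Rasgrp1 1450143_at, at 4.56 ± 0.49 in the F3 labels (SD, n = 3) and 5.04 ± 0.01 in 204 and 206 (SD, n = 2). It came to -0.48 (95% interval -1.15 to 0.19, limma adjusted p = 0.573). Without label F3, in a fit of 2 labels against 2, it was -0.76 and past the threshold (limma adjusted p = 0.0252). The number of all probe sets called varied widely over such leave-one-out fits, so nothing is read from this call. The highest was that of Rasgrp2 1417804_at, at 7.57 ± 0.40 in the F3 labels (SD, n = 3) and 7.19 ± 0.08 in 204 and 206 (SD, n = 2), or 0.37 (95% interval -0.19 to 0.93, limma adjusted p = 0.610). With 5 labels these intervals are wide, and they do not show that the leukemias were alike in these genes. The labels do not say whether F3, F3.1 and F3.2 were separate leukemias, so these 3 may not be independent units.

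The difference between TAM and OIL was also compared between the same labels, which uses the TAM minus OIL differences known when the set was chosen. No probe set passed an adjusted p of 0.05 in limma, neither of the 19 nor of all 45037 (0%), and 1 of 19 and 2228 of 45037 (4.95%) had an unadjusted p under 0.05. That 1 was Rasgrp1 1450143_at, whose TAM minus OIL difference was -0.08 in the F3 labels and -0.52 in 204 and 206, apart by 0.44 (95% interval 0.01 to 0.88, limma adjusted p = 0.985). For Rasgrp2 1438932_at the differences were 0.78 in the F3 labels and 1.09 in 204 and 206, apart by -0.31 (95% interval -0.97 to 0.34, limma adjusted p = 0.985). For Rasgrp4 they were 0.87 and 0.90, apart by -0.03 (95% interval -0.40 to 0.34, limma adjusted p = 0.996).

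Of 76 other genes listed for the Ras, Rap1 and ERK pathways, 63 were tested with 1 probe set each. Without a block 1 was higher in TAM and 0 were lower, beside 0.471% of all 12735 genes called. With the block 3 were higher and 1 was lower, beside 3.38% of all genes called. The median difference was 0.02 over the 63 and -0.03 over all genes tested. The lists were chosen with earlier results of these data known, so list medians are a description and support nothing. The ERK feedback genes, which ERK signalling induces and which restrain or report it, had the highest list median, 0.64 over 8 genes. Spry1 (-0.22) and Spry2 (-0.07) were lower in TAM on average, and the other 6 were higher. Of these, Dusp5, a phosphatase of nuclear ERK, rose by 1.35 and lay at 7.83 to 8.64 in TAM, against 6.53 to 7.58 in OIL (limma adjusted p = 0.0282 without a block and 0.00356 with it). Its call without a block did not hold without TAM 206, TAM F3.1, OIL 204, OIL 206, OIL F3.1 or OIL F3.2 (limma adjusted p = 0.0510 to 0.0938). Dusp4, another ERK phosphatase, averaged 6.81 ± 0.63 in TAM and 5.59 ± 0.36 in OIL (SD, n = 5 each), a difference of 1.23 that passed with the block (limma adjusted p = 0.106 without it and 0.0426 with it).

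Among 12 Rap1 effector and adhesion genes, 9 were lower in TAM on average and the median was -0.10. The lowest difference of the 63 genes was that of Itga4, the integrin alpha 4 subunit, named after its values were seen. It averaged 8.31 ± 1.43 in TAM and 9.44 ± 1.03 in OIL (SD, n = 5 each), with TAM lower in all 5 labels and overlapping groups. The difference of -1.12 did not pass (limma adjusted p = 0.544 without a block and 0.133 with it), and its other 4 probe sets differed by -1.08 to -0.091. Stk4, the kinase Mst1 that binds Rassf5, averaged 11.16 ± 0.27 in TAM and 11.55 ± 0.24 in OIL (SD, n = 5 each). Its difference of -0.39 passed with the block (limma adjusted p = 0.301 without it and 0.0171 with it), and its other probe sets 1421107_at and 1434159_at differed by -0.44 and -0.39. Among 6 other Rap GTPase-activating proteins, Sipa1l2 averaged 6.51 ± 0.27 in TAM and 6.19 ± 0.27 in OIL (SD, n = 5 each), and its difference of 0.32 passed with the block (limma adjusted p = 0.427 without it and 0.0410 with it). The calls of Dusp4 and Stk4 with the block held only when label F3.2 was the one left out, and that of Sipa1l2 held with none of the 5 left out. Adjusted over all probe sets with the block, the same probe sets of Dusp4 and Sipa1l2 did not pass (limma adjusted p = 0.0538 and 0.0628). Those of Dusp5 and Stk4 did (limma adjusted p = 0.00545 and 0.0275), but without a block Dusp5 did not (limma adjusted p = 0.0560).

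No gene of the remaining lists passed in either fit. By the brightest probe set of each gene, the Ras GTPases gave 0.43 for Mras and -0.32 for Rras2 as their largest differences. The other Ras exchange factors gave 0.43 for Sos1 and -0.24 for Rasgrf2. The Ras GTPase-activating proteins gave 0.76 for Rasa2 and 0.39 for Rasal1. For the Rapgef exchange factors of Rap1 they were -0.33 for Rapgef1 and 0.09 for Rapgef6, and for the Rap2 GTPases 0.05 for Rap2c and -0.05 for Rap2b. The diacylglycerol list holds enzymes that make or remove this lipid, which some RasGRP proteins bind, and kinases that it activates. It gave 0.63 for Dgka, which removes it, and 0.33 for Prkd2, a kinase that it activates. The other Rassf proteins gave 0.18 for Rassf3 and -0.14 for Rassf2, and the ERK cascade -0.16 for Ksr1 and 0.16 for Map2k1. Dimmer probe sets of these genes could differ in size or sign. Mras 1449590_a_at (mean level 4.29) differed by 1.10 (limma adjusted p = 0.107 with the block), Rras2 1448689_at by 0.16 and Rapgef6 1438828_at by 0.45.

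**Figure D4:**
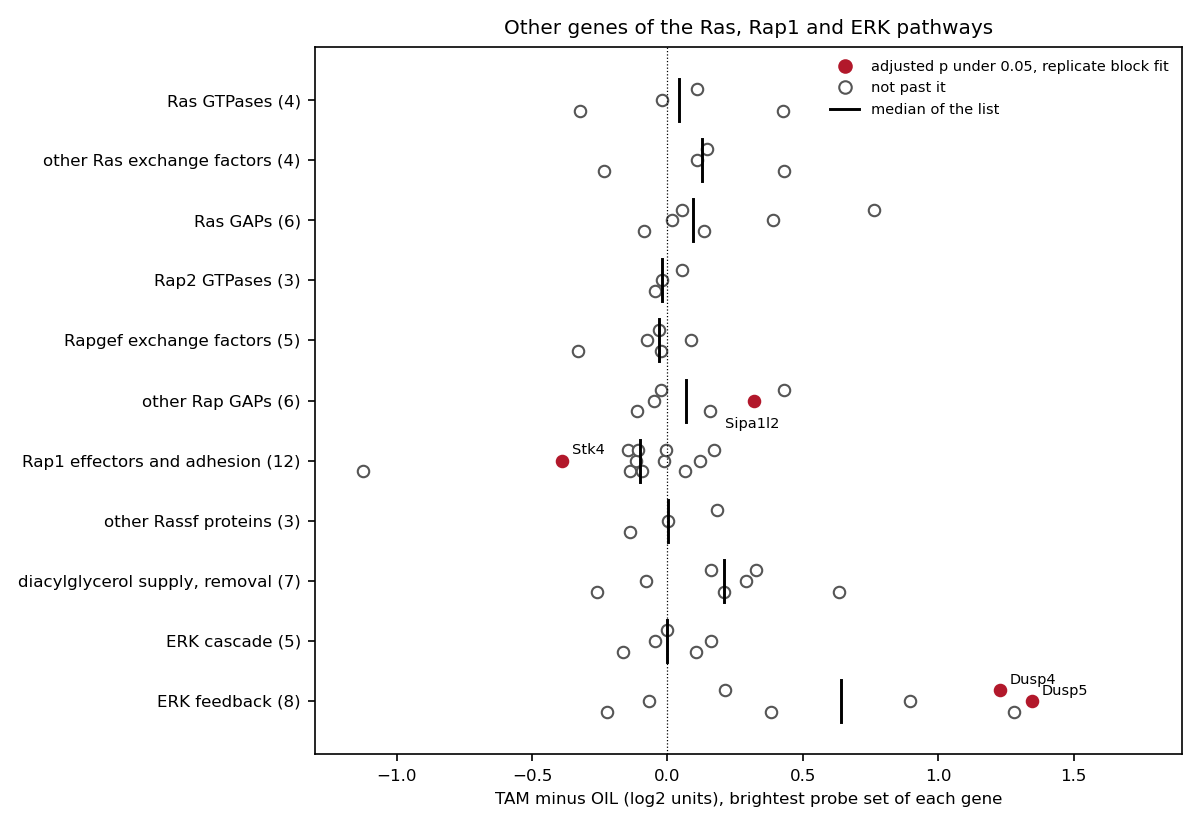
TAM minus OIL (horizontal axis, log2 units) of 63 other pathway genes, 1 point per gene by its brightest probe set, in 11 lists with the number of genes in brackets and a bar at the list median. Filled points passed an adjusted p of 0.05 in limma with the replicate block, and the 3 points farthest to the right are Dusp5, Egr1 (not past it) and Dusp4.

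The genes whose levels over the 10 arrays were most like those of Rasgrp2 were found among 12734 other genes by the Pearson correlation of their brightest probe sets. They were Relb (0.95), D030056L22Rik (0.94), Arc (0.94), Peli1 (0.94) and Irs2 (0.94), with correlations of 0.68 to 0.74 over deviations from the group means. The most opposite were Akap12 (-0.95), Mief2 (-0.94), Trnp1 (-0.94), Cers4 (-0.94) and Zdhhc8 (-0.93). For Rasgrp1 the most alike were Cep19 (0.92), Narf (0.92), Mccc1 (0.92), Celsr1 (0.92) and 2210016L21Rik (0.91), and the most opposite Pcid2 (-0.93), Mpzl3 (-0.92), Ppp2r2d (-0.92), Zbtb48 (-0.91) and Ing5 (-0.90). The 10 arrays share treatment groups and labels, so these correlations are descriptions without a test.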

How the data were processed

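The deposited log2 values of 10 arrays (5 TAM, 5 OIL) were made by the authors through RMA, the tool named in the submitters' processing notes, with no version given in the sources used here. RMA normalizes arrays by quantiles, so a shift common to all genes is removed before deposit. Arrays have no read depth, and their number limits the precision. Of 45101 probe sets, 64 controls were left out, 34958 had 1 gene symbol in the platform annotation, 932 had several, 9211 had none, and 34754 matched RefSeq by Entrez ID.

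TAM minus OIL was fitted per probe set, and per gene by the brightest probe set with the lowest 30% of genes (below 4.59) left out, with limma 3.58.1 (lmFit, eBayes) and Benjamini-Hochberg adjustment. R was 4.3.3 and data.table version 1.17.8. Labels F3, F3.1 and F3.2 were compared with 204 and 206 on label means and on label differences in the same way. The fits were checked on simulated data with independent arrays and no shared label effect. That check does not cover same-labelled arrays that deviate together. The label as a block was the alternative: same-labelled arrays deviated together from their group means (Pearson r over the genes tested 0.76 for 204, 0.745 for 206, 0.80 for F3, 0.58 for F3.1 and 0.18 for F3.2, all above the limit of 0.1), so the pairing rests on the label names and on these correlations. Only 7 of 10 arrays matched best with their own label. The members, lists and tests were chosen with earlier results of these data known. The genes named were every member, Ppp3r1, called genes of the lists or else the 2 largest differences, and the 5 most and least alike genes of Rasgrp2 and Rasgrp1. Marker genes, Itga4 and Egr1 were named after their values were seen.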

Additional observations from a re-analysis of the deposited data

Results flagged for a closer look

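Each group of 5 arrays was checked for an array that stood apart by Dixon's 95% limit of 0.71, a limit that chance passes in about 5% of groups. Of 38 groups, 2 had such an array. In Rasgrp2 1417804_at, OIL F3 was at 7.55 while the other OIL arrays lay at 6.73 to 6.81, and the gap was 0.897 of the range. In Rap1b 1455349_at, TAM F3 was at 8.99 while the other TAM arrays lay at 9.25 to 9.30, and the gap was 0.826 of the range.

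Rap1b 1455349_at also differed in opposite directions by label. TAM minus OIL was -0.09, -0.15 and -0.19 in F3, F3.1 and F3.2, against 0.14 in 204 and 0.08 in 206, apart by -0.256 (95% interval -0.56 to 0.04, limma adjusted p = 0.985).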

How the results depend on the processing

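Without a block, 33 probe sets and 60 genes passed an adjusted p of 0.05. With the replicate block there were 584 and 431, and the calls among the members went to 6 of 19 probe sets and 2 of 7 genes, against 0 and 1 without it. Leaving out each array in turn gave 13 to 44 probe sets and 8 to 54 genes, with 0 to 2 member probe sets and 0 to 2 member genes. Averaging OIL F3.1 and OIL F3.2, which correlated at 0.997, gave 13 probe sets and 10 genes, with 0 member genes. A further quantile normalization, trend and robust priors and leaving out the lowest 50% of probe sets each gave 1 member probe set, Rasgrp2 1438933_x_at; trend and robust priors gave 3 member genes, and the mean of all probe sets of a gene gave 26 genes. In the replicate block fits, leave-one-label-out alternatives chosen after seeing the data gave 108 to 760 probe sets (1 to 7 members) and 87 to 436 genes (1 to 3 members). The family contrast gave 100 to 1841 probe sets (0 to 1 member) over leave-one-out fits, against 296, and 2024 with all 10 arrays as units; its treatment counterpart gave 0 to 1 probe set. The sign turned only in small, uncalled differences: Rap1b 1455349_at ranged from -0.087 to 0.014 over leave-one-out fits and was 0.0093 with the averaged arrays, Rasgrp1 1421176_at ranged from -0.32 to 0.016 (from -0.22 to 0.014 with the replicate block and 1 label left out), and Rasgrp1 1431749_a_at ranged from -0.41 to 0.0086. Dusp5 kept its difference (1.24 to 1.52) and lost its call without a block in 6 of 10 leave-one-out fits. The causes were not tested. Median centring moved all probe sets by 0.0039.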
